A study of Homo sapiens with 48 samples.

Results

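RELA, the p65 subunit of NF-κB, was mapped by ChIP-seq in L3.6pl, an established human pancreatic ductal adenocarcinoma (PDAC) cell line, and its binding regions after 6 h of TWEAK were set against those after 30 min. Each time point had 3 replicates, from which 1 merged peak list was deposited. A region was a member when its summit lay on chromosomes 1 to 22 or X and outside tandem repeats, and regions of both times were matched by an overlap of at least 1 bp. Of 2777 regions at 30 min, 681 lay outside tandem repeats, and of 3651 regions at 6 h, 450 did. This gave 404 early-only regions, called at 30 min and not at 6 h, 277 retained regions, called at both times, and 171 late-only regions, called at 6 h and not at 30 min. The 277 retained regions corresponded to 279 regions of the 6 h list, since some lay side by side. Together the 852 members compare with 9095 separate RELA sites outside tandem repeats over the 5 RELA lists of the series.

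The cells were unmodified and differed only in ligand and time. TWEAK was given at 10 ng/ml, and the other lists used here came from vehicle, from both times of TNFα, and from RELB, FOSL1 and H3K27ac in the same cells, 16 lists and 48 samples in all. How long vehicle was applied is not stated in the labels. RELA was precipitated with protein G beads and the other targets with protein A beads. All lists come from 1 cell line, and since peaks were called on merged replicates, no list carries a replicate error. Intervals below are exact 95% intervals over regions, and regions are not replicates. The peak lists carry no read depth, so a region absent from a list was not called there, which does not show that RELA was absent. As a check of the labelled cells, an H3K27ac peak of vehicle lay within 500 bp of a start of all 5 epithelial markers (KRT8, KRT18, KRT19, EPCAM and CDH1), of 1 of 4 immune markers (CD68), of 1 of 3 fibroblast markers (COL1A1) and of 0 of 2 endothelial markers.

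NF-κB factors are dimers held in the cytoplasm until a receptor signals. In the canonical pathway, RELA paired with p50 is freed from its inhibitor IκBα within minutes, enters the nucleus and switches on, among others, the genes of its own inhibitors, which return it to the cytoplasm. In the noncanonical pathway, which TWEAK engages through its receptor (TNFRSF12A), the kinase NIK accumulates, p100 is processed to p52, and RELB paired with p52 enters the nucleus hours later. The question of the comparison is which early RELA regions are lost by the time RELB arrives, which remain, and which appear.

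The sequences below show the NF-κB motif nearest the summit, in capitals, with 15 flanking bases on each side, read 5′ to 3′ in the direction of the motif from the hg38 reference. They stand for the regions that the gene comparisons turn on: regions called at 30 min and not at 6 h, regions called at both times, and regions called at 6 h and not at 30 min. The first set belongs to early-only regions, named by a nearby gene.
NOG (chr17:56654050-56654089, plus strand): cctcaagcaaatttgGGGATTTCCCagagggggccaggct
MAP7D2 (chrX:20118552-20118591, minus strand): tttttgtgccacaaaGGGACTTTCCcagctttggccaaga
CD9 (chr12:6216470-6216509, minus strand): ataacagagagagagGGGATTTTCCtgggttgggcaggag
BCL3 (chr19:44747500-44747539, minus strand): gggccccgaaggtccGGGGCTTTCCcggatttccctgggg
CXCL2 (chr4:74099249-74099288, minus strand): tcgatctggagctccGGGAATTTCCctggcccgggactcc
CXCL5 (chr4:73998744-73998783, minus strand): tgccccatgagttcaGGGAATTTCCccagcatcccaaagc
MMP1 (chr11:102794572-102794611, plus strand): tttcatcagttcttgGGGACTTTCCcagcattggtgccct
The second set belongs to retained regions, most of them beside genes of NF-κB proteins and of their feedback regulators.
MAFF (chr22:38218754-38218793, plus strand): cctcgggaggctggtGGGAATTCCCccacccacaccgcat
TNFAIP3 (chr6:137873544-137873583, plus strand): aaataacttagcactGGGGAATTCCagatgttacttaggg
CYLD (chr16:50741882-50741921, minus strand): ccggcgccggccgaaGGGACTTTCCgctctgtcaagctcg
BIRC3 (chr11:102317270-102317309, minus strand): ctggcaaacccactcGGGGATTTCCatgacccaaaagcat
RELB (chr19:45001318-45001357, plus strand): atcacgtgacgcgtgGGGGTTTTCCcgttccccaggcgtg
NFKBIA (chr14:35404806-35404845, plus strand): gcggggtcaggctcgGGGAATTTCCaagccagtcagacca
The third set belongs to late-only regions, of which those of TRAF2, TNIP1 and GPR39 were also called for RELA in vehicle.
TRAF2 (chr9:136902585-136902624, minus strand): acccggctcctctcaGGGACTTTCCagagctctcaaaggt
TNIP1 (chr5:151083493-151083532, plus strand): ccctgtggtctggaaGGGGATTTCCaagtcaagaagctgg
TNIP2 (chr4:2746285-2746324, minus strand): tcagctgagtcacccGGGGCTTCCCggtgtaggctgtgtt
GPR39 (chr2:132438874-132438913, minus strand): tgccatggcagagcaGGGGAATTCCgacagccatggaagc
The same decamer, GGGACTTTCC, stood in the shown regions of MAP7D2 and MMP1 (early-only), of CYLD (retained) and of TRAF2 (late-only) and thus occurred in all 3 classes. The TNFAIP3 site shown lies in the intronic region of that gene, and the NFKBIA site in the weaker of its retained regions.

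More RELA regions were called at 30 min of TWEAK alone than at 6 h alone. Of the 681 regions at 30 min, 277 were called at 6 h, 40.7% (37.0 to 44.5), against 70.5% of all 2777 regions when tandem repeats are included. Of the 450 regions at 6 h, 171 were not called at 30 min, 38.0% (33.5 to 42.7), against 46.1% of all 3651 regions when tandem repeats are included. There were 2.36 early-only regions per late-only region (1.97 to 2.84). This ratio goes with the lengths of the lists, 681 and 450 regions, and with 1 merged list per time it has no replicate check. Its direction holds outside tandem repeats only: with no region left out, the ratio was 0.486, and with a self-match limit of 0.5 in place of 0.4 it was 1.38. With fold enrichment of at least 5 in both lists it rose to 4.76, and between the 300 strongest regions of each list it was 1.00, as lists of equal length give for regions that pair one to one.

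The classes differed in how often RELA was already called in vehicle. The vehicle list held 435 regions outside tandem repeats, against 9095 separate RELA sites over the series. The share of all these sites in the vehicle list is not given here. The values therefore compare the classes only, and a lower share is low among the classes, not against all RELA sites. The vehicle RELA list held 215 of 277 retained regions, 77.6% (72.2 to 82.4), 83 of 404 early-only regions, 20.5% (16.7 to 24.8), and 50 of 171 late-only regions, 29.2% (22.5 to 36.7). The share of early-only regions was lower than that of retained regions by 57.1 percentage points (Newcombe 95% interval of the difference, early-only minus retained, -62.9 to -50.3). Put the other way, 215 of the 298 early regions already called in vehicle were called again at 6 h, 72.1% (66.7 to 77.2), while of the 383 early regions absent from the vehicle list only 62 were, 16.2% (12.6 to 20.3). Of the 185 regions at 6 h that vehicle lacked, 121 were late-only, 65.4% (58.1 to 72.2). Most 30 min regions absent from the vehicle list were thus not called at 6 h. For comparison, 68.3% (63.7 to 72.6) of the 435 vehicle regions were called at 30 min of TWEAK and 60.5% (55.7 to 65.1) at 6 h.

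**Figure D1:**
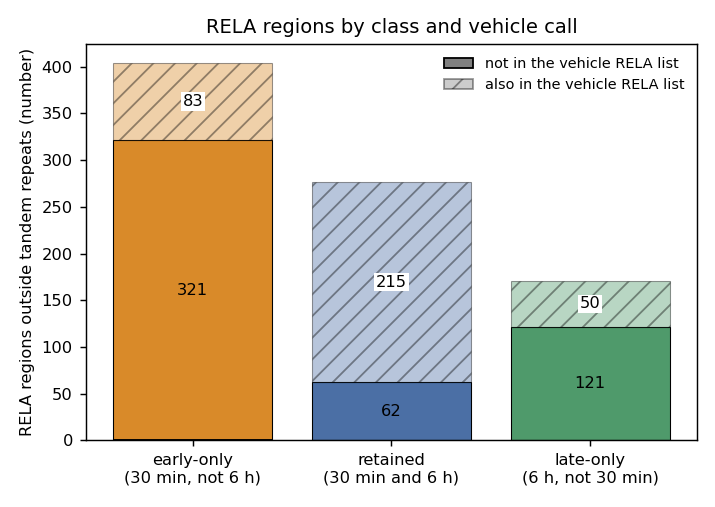
Number of RELA regions outside tandem repeats in each class, with the part that was also called in vehicle hatched. Of the early-only regions 321 were absent from the vehicle list, of the retained regions 62 and of the late-only regions 121.

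Fold enrichment is the ratio of ChIP over input at the peak, as the peak caller gave it. It comes from the 2 lists that define the classes, so its values are a description. At 30 min the median was 6.75 for early-only regions (quartiles 5.83 and 7.98, highest 15.1) and 8.98 for retained regions (quartiles 6.61 and 12.1, highest 39.2). At 6 h the median was 5.81 for retained and 4.84 for late-only regions (quartiles 3.88 and 5.96, highest 11.5). Regions absent from the vehicle list were weaker than those in it. At 30 min their medians were 6.55 against 7.79 in early-only and 6.29 against 9.60 in retained regions. At 6 h they were 4.75 against 5.78 in late-only regions. The part of strength in the difference by vehicle call was not tested. The stronger a region was at 30 min, the more often it was retained, except at the bottom of the range. With 30 min fold enrichment of 9.38 or more, 125 of 170 regions were called at 6 h (73.5%), from 7.18 to 9.35 the share was 38.8%, from 6.02 to 7.16 it was 20.0%, and up to 6.00 it was 30.4%. Among the retained regions themselves, 219 of 277 had the higher fold enrichment at 30 min and 58 at 6 h, and the median ratio of 30 min over 6 h was 1.34. Over all regions outside tandem repeats the median was 7.16 at 30 min and 5.54 at 6 h, so the list as a whole was lower at 6 h. Depth is unknown, so a difference in fold enrichment between lists does not by itself show a change in binding, here or at single genes below.

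The 58 retained regions that were higher at 6 h differed from the other 219 in further lists. The NF-κB motif was found in 14 of the 58, 24.1%, and in 153 of the 219, 69.9%. Of the 58, 18 stood in each of the 10 lists of RELA and RELB, and 33 in the RELB list of 30 min of TWEAK, against 15 and 22 of the 219. In all, 33 retained regions were called in every one of the 10 lists, 27 of them were also FOSL1 regions, and 2 held the NF-κB motif. Their median fold enrichment was 9.12 for RELA in vehicle, 9.75 at 30 min and 8.44 at 6 h, and 8.71 and 10.5 for RELB at 30 min and 6 h of TWEAK. These are medians over the 33 regions, and single regions varied more.

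**Figure D2:**
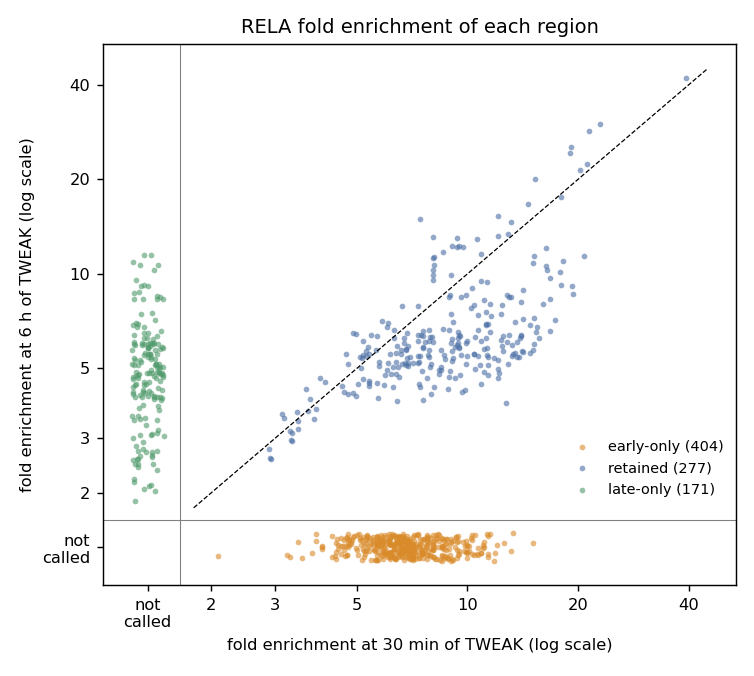
Fold enrichment of each region at 30 min (x axis) and 6 h of TWEAK (y axis), both on a log scale, with regions absent from a list drawn in the strip marked not called. The dashed line marks equal values, and 219 of 277 retained regions lie below it.

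RELB was called at 6 h of TWEAK at most retained regions and at a lower share of both other classes. RELB overlapped 248 of 277 retained regions, 89.5% (85.3 to 92.9), 224 of 404 early-only regions, 55.4% (50.5 to 60.4), and 82 of 171 late-only regions, 48.0% (40.3 to 55.7), while over all 9095 separate RELA sites of the series the share was 15.9%. The difference of early-only minus retained was -34.1 percentage points (Newcombe interval -39.9 to -27.8), and that of late-only minus early-only was -7.5 (-16.3 to 1.4), an interval that includes 0. At 6 h, 224 regions no longer called for RELA were thus called for RELB. The remaining 180 early-only regions had neither factor called at 6 h.

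RELB was gained between the 2 times at all 3 classes. RELB was called at 33 early-only regions in vehicle, at 6 after 30 min and at 224 after 6 h of TWEAK, with 219 regions gained and 1 lost from 30 min to 6 h. Among retained regions these counts were 118, 55 and 248, with 196 gained and 3 lost. Among late-only regions they were 45, 32 and 82, with 64 gained and 14 lost. After 6 h of TNFα RELB was called at 14.4% (11.1 to 18.2) of early-only, 48.7% (42.7 to 54.8) of retained and 35.1% (28.0 to 42.7) of late-only regions, below the TWEAK share in each class, from a list of 406 regions outside tandem repeats. The fewer regions at 30 min go with a shorter list, since outside tandem repeats RELB had 290 vehicle regions, 127 regions after 30 min and 1636 after 6 h of TWEAK. Shares of all RELA sites in the RELB lists of vehicle, 30 min of TWEAK and 6 h of TNFα are not given here. A gain at all 3 classes therefore does not set them apart from other RELA sites.

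**Figure D3:**
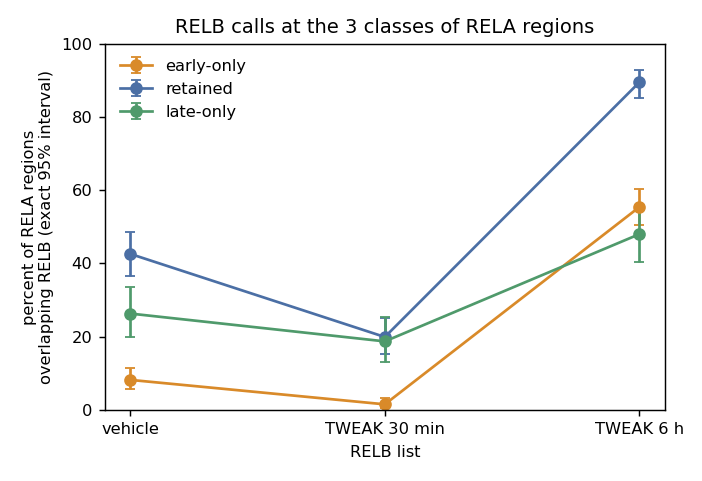
Percent of the RELA regions of each class that overlap a RELB region in vehicle and after 30 min or 6 h of TWEAK (x axis), with exact 95% intervals. All 3 classes are highest at 6 h, where retained regions reach 89.5%, and at 30 min the intervals of retained and late-only regions overlap.

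Early-only regions with and without RELB at 6 h differed in sequence. Of the 224 with RELB, 178 held the NF-κB motif, 79.5% (73.6 to 84.6), and 48 the AP-1 motif, 21.4% (16.2 to 27.4). Of the 180 without RELB, 108 held the NF-κB motif, 60.0% (52.4 to 67.2), and 12 the AP-1 motif, 6.67% (3.49 to 11.4). FOSL1, an AP-1 subunit mapped here in vehicle, was called at 77.7% (71.7 to 83.0) of the former and 63.9% (56.4 to 70.9) of the latter, and RELA in vehicle at 29.5% (23.6 to 35.9) and 9.44% (5.60 to 14.7). Promoters made up 27.7% (21.9 to 34.0) and 35.0% (28.1 to 42.4), with intervals that overlap.

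The NF-κB consensus was most frequent in early-only regions and least frequent in late-only regions. It was searched on both strands in the 200 bp around each summit. It was found in 286 of 404 early-only regions, 70.8% (66.1 to 75.2), 167 of 277 retained regions, 60.3% (54.3 to 66.1), and 52 of 171 late-only regions, 30.4% (23.6 to 37.9). In windows of the same length it was found in 44.6% of the 9095 separate RELA sites, in 2.19% of 47957 FOSL1 regions outside all RELA and RELB lists, and in 4.21% of RefSeq promoters. Late-only minus early-only was -40.4 percentage points (Newcombe interval -48.1 to -31.8), and early-only minus retained was 10.5 (3.3 to 17.7). In comparisons chosen after seeing the data, the retained share was 67.6% (61.4 to 73.5) without the 33 regions called in all 10 lists. Without every region called for RELB at 30 min of either ligand it was 75.9% (69.4 to 81.6), above the early-only share of 71.9% (67.2 to 76.3), so the order of these 2 classes turned, while late-only regions stayed lowest at 38.0% (29.6 to 46.9). The AP-1 motif, TGACTCA, was found in 24.2% (19.3 to 29.7) of retained, 14.9% (11.5 to 18.7) of early-only and 15.8% (10.7 to 22.1) of late-only regions, against 16.0% of the 9095 sites. The TEAD motif, GGAATG, was found in 14.1%, 17.6% and 12.9%, with intervals that overlap, against 15.1% of the 9095 sites.

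Where the motif was found, it lay close to the summit in every class, at a median of 16.0 bp in early-only, 12.0 bp in retained and 15.0 bp in late-only regions. The individual matches were shared unevenly. GGGGAATTCC, shown above at TNFAIP3 and GPR39, was held by 68 regions at 30 min, of which 41 were retained, 60.3% (47.7 to 72.0), and 61 overlapped RELB at 6 h, 89.7% (79.9 to 95.8). GGGACTTTCC was held by 51 regions, of which 14 were retained, 27.5% (15.9 to 41.7), and 42 overlapped RELB, 82.4% (69.1 to 91.6). GGGAAATTCC was held by 58 regions, of which 20 were retained, 34.5% (22.5 to 48.1), and 37 overlapped RELB, 63.8% (50.1 to 76.0). The median 30 min fold enrichment was 8.42, 7.32 and 7.52 for these 3 groups. GGGAATTTCC was held by 56 regions, of which 33.9% (21.8 to 47.8) were retained and 66.1% (52.2 to 78.2) overlapped RELB. Of the 228 regions without a match, 48.2% (41.6 to 54.9) were retained and 58.3% (51.6 to 64.8) overlapped RELB. The matches named here were chosen after their values were seen, since they are among the most frequent, and their differences are a description.

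Late-only regions fell into a part with and a part without the motif. Of the 52 with the motif, 46 overlapped RELB at 6 h of TWEAK, 88.5%, 51 overlapped RELA at 6 h of TNFα, 98.1%, and 42 had H3K27ac in vehicle, 80.8%. Of the 119 without it, the numbers were 36, 72 and 63, or 30.3%, 60.5% and 52.9%. In the vehicle RELB list the order was the opposite, with 7 of 52, 13.5%, against 38 of 119, 31.9%. FOSL1 was called at 51.9% and 55.5%.

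Most early TWEAK regions were also called after TNFα. The RELA list of 30 min of TNFα held 95.5% (93.0 to 97.3) of early-only and 94.6% (91.2 to 96.9) of retained regions, and that of 6 h of TNFα held 93.3% (90.4 to 95.5) and 97.5% (94.9 to 99.0). Regions lost at 6 h of TWEAK were therefore still called at 6 h of TNFα in 377 of 404 cases. Late-only regions were held less often, 56.7% (48.9 to 64.3) at 30 min and 71.9% (64.6 to 78.5) at 6 h of TNFα. The TNFα lists are longer, with 8304 and 3657 regions outside tandem repeats, while all 5 RELA lists together make 9095 separate sites. Most sites of the series thus come from the list of 30 min of TNFα. A high share in that list therefore does not set the early TWEAK regions apart. The shares of all sites in the TNFα lists are not given here. In the list itself the median fold enrichment of early-only regions was 14.1 after the short and 10.1 after the long TNFα treatment, and that of retained regions ranged by quartile from 12.1 to 19.1 and from 11.3 to 17.2.

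The chromatin marks of vehicle-treated cells also differed between the classes. Their shares over all RELA sites of the series are not given here, so the values compare the classes only. FOSL1 was called at 83.8% (78.9 to 87.9) of retained, 71.5% (66.9 to 75.9) of early-only and 54.4% (46.6 to 62.0) of late-only regions, and early-only minus retained was -12.2 percentage points (Newcombe interval -18.2 to -5.9). H3K27ac, a mark of active promoters and enhancers, lay within 500 bp of the summit at 83.9% (80.0 to 87.4) of early-only, 77.6% (72.2 to 82.4) of retained and 61.4% (53.7 to 68.7) of late-only regions. Counting only peaks that overlap the region itself, the shares were 68.6%, 70.4% and 46.8%, so early-only regions were then not highest. At 30 min of TWEAK, early-only regions gained H3K27ac peaks in 21 cases and lost them in 5, or 4.20 gained per lost (1.54 to 14.3), while the FOSL1 regions outside RELA and RELB lists gained 0.154 per lost (0.143 to 0.166). At 6 h the early-only numbers were 18 gained and 9 lost against vehicle, 2.00 per lost (0.853 to 5.05), where the FOSL1 regions gave 0.324 (0.301 to 0.347). These gains depend on the definition. Counting H3K27ac peaks that overlap the region itself, early-only regions gained 27 and lost 22 at 30 min. At 6 h they gained 13 and lost 32, 0.406 per lost (0.196 to 0.796). By the same count at 6 h, retained regions gained 5 and lost 29, 0.172 per lost. Late-only regions gained 3 and lost 17, 0.176 per lost, and the FOSL1 regions gave 0.288. A loss by this count was thus not particular to early-only regions. Within 500 bp, retained regions gained 13 and lost 5 at 30 min and gained 4 and lost 3 at 6 h. Late-only regions gained 7 and lost 13 at 30 min and gained 7 and lost 12 at 6 h, with intervals of the ratio of 0.182 to 1.45 and 0.195 to 1.61.

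**Figure D4:**
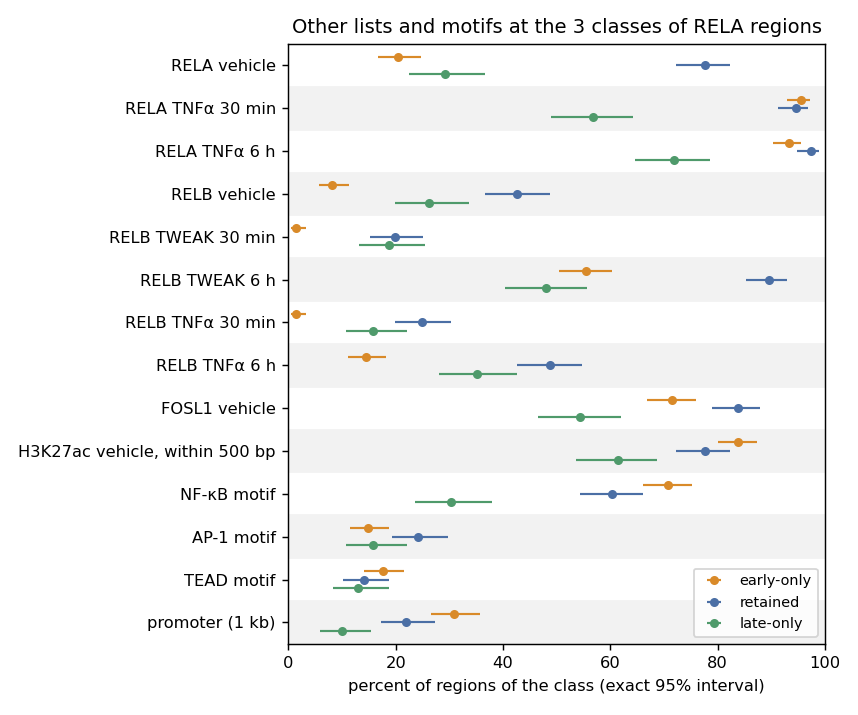
Percent of early-only, retained and late-only RELA regions that overlap other peak lists, lie near H3K27ac, hold a motif or lie within 1 kb of a gene start, with exact 95% intervals. The classes lie farthest apart for the vehicle RELA list, the RELB list of 6 h of TWEAK and the NF-κB motif.

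Among the classes, early-only regions lay at promoters most often. Positions over all RELA sites of the series are not given here, so the shares compare the classes only. A summit within 1 kb of a protein-coding start was counted as promoter, and this held for 125 of 404 early-only regions, 30.9% (26.5 to 35.7), 61 of 277 retained (interval 17.3% to 27.4%), and 17 of 171 late-only regions, 9.94% (5.90 to 15.4). Late-only minus early-only was -21.0 percentage points (Newcombe interval -26.9 to -14.1). Introns of protein-coding genes outside promoters held 109 early-only, 83 retained and 50 late-only regions, and exons held 8, 3 and 7. Non-coding genes held 11.6%, 15.5% and 22.8% of the classes in the same order, and intergenic sequence 28.5%, 31.4% and 33.9%. The median distance to the nearest start was 10246 bp for early-only, 11598 bp for retained and 25886 bp for late-only regions.

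The strongest regions of each class differed in kind. The 10 strongest early-only regions had fold enrichments of 11.4 to 15.1 at 30 min and were nearest to EEF1A1, NOG, CKM, APLF, MSTO1, MAP7D2, BCL3, CD9, DHRS7B and CASZ1. All 10 were called at both times of TNFα, and 8 of them overlapped RELB at 6 h of TWEAK. The region 60386 bp from the start of NOG, a secreted antagonist of BMP signalling, had a RELA fold enrichment of 13.3 at 30 min of TWEAK, 17.4 and 13.5 at 30 min and 6 h of TNFα, and none in vehicle, and RELB reached 9.44 at 6 h of TWEAK. The region in CD9, a tetraspanin gene, had 11.5 at 30 min of TWEAK, 16.0 and 11.5 after TNFα, and RELB at 11.2. At both loci RELB was the only one of the 2 factors called at 6 h of TWEAK.

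The 10 strongest retained regions had fold enrichments of 19.0 to 39.2 at 30 min, and those described here were nearest to IRS2, KIF5C, OVCH2, NFKB2, NECTIN1, PLA2G6, CCNL1, ELMOD1 and MAP4K4. Those nearest to IRS2, KIF5C, OVCH2, NECTIN1, ELMOD1 and MAP4K4 stood in each of the 10 lists of both factors, without an NF-κB motif. Except at OVCH2, FOSL1 was called there in vehicle too, so these calls were not particular to RELA and RELB. Its fold enrichment was 32.4 at IRS2, 14.2 at KIF5C, 17.8 at NECTIN1, 17.5 at ELMOD1 and 15.6 at MAP4K4. FOSL1 was also called at the regions of NFKB2, PLA2G6 and CCNL1, at 14.3, 10.8 and 4.07. The IRS2 region, 362346 bp from that gene's start, had 40.2 in vehicle, 39.2 at 30 min and 42.0 at 6 h for RELA and 40.2, 40.5 and 41.4 for RELB in vehicle and at the same times of TWEAK. The values of others differed between lists: the NECTIN1 region had 37.9, 20.2 and 21.4 for RELA and 8.66, 20.4 and 27.9 for RELB, and the ELMOD1 region had 34.8, 19.1 and 25.4 for RELA and 11.2, 22.3 and 29.5 for RELB. The MAP4K4 region had 33.6, 19.0 and 24.2 for RELA and 14.1, 24.6 and 25.7 for RELB. The regions of NFKB2, PLA2G6 and CCNL1 held the motif and had lower values at 6 h: 20.7 to 11.4 at the promoter of NFKB2, which encodes p100, 19.4 to 8.65 at the intergenic region near PLA2G6 and MAFF, and 19.3 to 9.12 at the promoter of CCNL1, a cyclin that acts in splicing.

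The 10 strongest late-only regions had fold enrichments of 9.13 to 11.5 at 6 h and were nearest to NRXN3, DONSON, CREBBP, CNTNAP2, AVPI1, TRAF2, KCNJ3, TMEM132A, SULF1 and GPR39. Only the regions of TRAF2, TMEM132A and GPR39 held the NF-κB motif. The intronic TRAF2 region had a RELA fold enrichment of 10.7 in vehicle, was not called at 30 min, and had 10.3 at 6 h, where RELB reached 22.8. Of the 10, 8 were called for RELA in vehicle, and those of DONSON and CNTNAP2 were not. The regions of NRXN3, DONSON, CREBBP, AVPI1 and SULF1, all without the motif, were called for RELB at 30 min of TWEAK. Their RELB fold enrichments then were 7.85, 9.41, 9.24, 10.8 and 9.80. The others of the 10 were not called in that list.

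Genes of the NF-κB system were described from 10 lists with 119 genes, each matched to the annotation and counted within 50 kb of a start. Of all 19618 protein-coding genes, 3.54% lay near an early-only, 2.33% near a retained and 1.16% near a late-only region. Of the 119 listed genes, 24 lay near an early-only region, 20.2%, 23 near a retained region, 19.3%, and 6 near a late-only region, 5.04%. The lists hold known NF-κB targets and were chosen with earlier results of these data known, so these counts do not set the genes apart.

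NF-κB and IκB proteins, the factors and their inhibitors, lay near retained regions in 10 of 11 cases, near early-only regions in 5 and near late-only regions in 0. At the promoter of NFKBIA, which encodes IκBα, the stronger region had RELA fold enrichments of 14.9 in vehicle, 16.4 at 30 min and 12.1 at 6 h. RELB there was 9.23 in vehicle, not called at 30 min and 18.1 at 6 h. At the RELB promoter, RELA was 8.64 in vehicle, 15.2 at 30 min and 5.99 at 6 h, and RELB itself was called at 6 h only, at 10.7. The NFKB1 promoter, which encodes the p105 precursor of p50, had 8.71, 15.6 and 6.23, and the NFKBIE promoter, which encodes IκBε, had 6.67, 11.4 and 5.44. At NFKB2 a second promoter region was early-only, at 7.12, with RELB at 14.2 at 6 h, and at BCL3, a nuclear IκB protein, a region 1.2 kb upstream was early-only, at 11.8, while an intronic region was retained, at 6.88 and 5.21. The NFKBIZ and NFKBIB promoters had retained regions where RELB was not called at 6 h.

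Feedback regulators, which switch the pathway off, lay near retained regions in 5 of 10 cases, near late-only regions in 2 and near early-only regions in 0. TNFAIP3 encodes the deubiquitinase A20, and its promoter had RELA at 13.9 in vehicle, 16.8 at 30 min and 9.72 at 6 h. RELB there was 9.12, not called and 21.0. An intronic region of TNFAIP3 was absent from the vehicle lists, had RELA at 7.32 and 5.47, and RELB at 8.19 at 6 h. CYLD, another deubiquitinase, had RELA at 9.26, 10.3 and 9.01 and RELB at 19.2 at 6 h. TNIP1, a partner of A20, had a retained promoter region, at 11.2, 12.1 and 4.99, and a late-only intronic region, at 4.44 in vehicle and 5.81 at 6 h, where RELB was 11.5. The late-only region in TNIP2 was called for RELA at 5.16 and for RELB at 19.6 at 6 h.

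TRAF, cIAP and kinase genes lay near a region in 3 of 13 cases. BIRC3, which encodes cIAP2, had a retained promoter region at 10.6, 15.1 and 10.8, with RELB at 6.97 in vehicle, not called at 30 min and 16.5 at 6 h. A retained region upstream of BIRC2, the cIAP1 gene, had 6.90, 5.31 and 5.70, with RELB at 12.6. The TRAF2 promoter region was early-only, at 6.33, in contrast with the late-only region in its intron. Of 17 TNF family ligands and receptors, 3 lay near early-only, 2 near retained and 2 near late-only regions. TNFRSF10B and TNFRSF10C were counted from the same retained and the same late-only region. Within 10 kb the counts were 0, 1 and 1. Near TNFRSF10B, a TRAIL receptor, the retained region had 11.4, 18.2 and 11.0 and the late-only region 4.62, not called and 5.44, with RELB at 19.3 and 10.3 at 6 h.

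Chemokine genes lay near early-only regions in 3 of 13 cases and near a retained region in 1. The promoters of CXCL2, CXCL3 and CXCL5, which encode neutrophil attractants, had RELA at 8.09, 6.18 and 6.69 at 30 min, and none was called for RELA at 6 h of TWEAK or for RELB in any of its 5 lists. In vehicle only the CXCL3 promoter was called among these 3, at 5.51. CXCL2 and CXCL3 are near-identical neighbours, so reads at their promoters could be assigned to either. CXCL8, which encodes interleukin-8, kept RELA, at 12.1 at 30 min and 5.33 at 6 h, was absent from the vehicle list and had no RELB. After TNFα the CXCL8 promoter had RELA at 24.5 and 20.0. Of 13 cytokine genes, 4 lay near early-only and 2 near retained regions. The IL32 promoter was early-only, at 8.06, with RELB at 8.02 at 6 h, and the region 4.2 kb upstream of LIF was retained, at 7.40, 8.46 and 5.04. A region 17531 bp upstream of CSF1, the macrophage growth factor gene, was retained without a vehicle call, at 11.1 and 4.88, and without RELB.

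Among adhesion genes 1 of 7, CD83, lay near an early-only region, at 7.28 with RELB at 6.79 at 6 h, and 0 of 11 survival and stress genes lay near any member. Of 12 AP-1 genes, 3 lay near early-only, 1 near retained and 1 near late-only regions. The region 2.2 kb from the start of JUNB, in an intron of HOOK2, was early-only, at 5.84 in vehicle and 8.12 at 30 min, with RELB at 7.79 at 6 h, and the retained region 5.2 kb from MAFF is the one named above by PLA2G6. Of 12 protease and migration genes, 4 lay near early-only regions and 0 near the other classes. A single intronic region of MMP1, the interstitial collagenase gene, accounted for MMP1, MMP3 and MMP10. It had RELA at 7.25 at 30 min, was not called at 6 h, and had RELB at 8.14 at 6 h. EFNA1, the ephrin A1 gene, had no RELA or RELB region of vehicle or TWEAK within 10 kb, and RELA at 18.9 and 7.57 at 30 min and 6 h of TNFα.

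**Figure D5:**
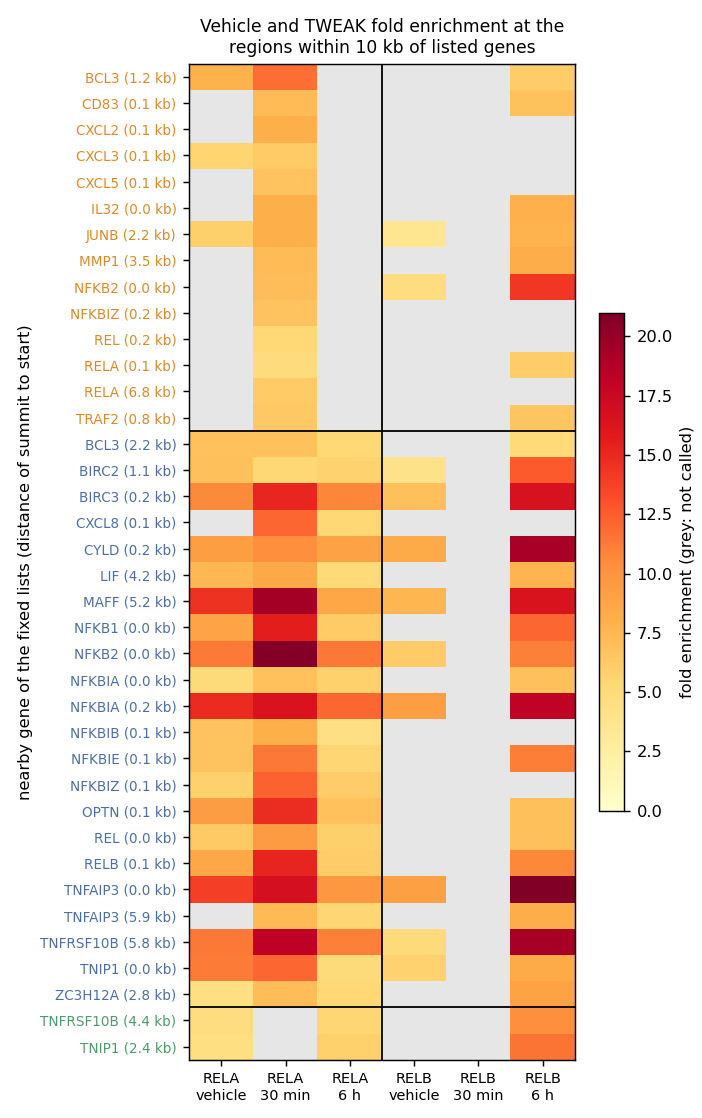
Fold enrichment of RELA and of RELB in vehicle and after 30 min or 6 h of TWEAK (columns) at the regions within 10 kb of a listed gene (rows), early-only at the top, retained in the middle and late-only at the bottom, with grey for regions not called. The RELB column of 30 min is grey throughout.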

How the data were processed

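ChIP-seq of RELA, RELB, FOSL1 and H3K27ac in L3.6pl cells gave 48 samples in 16 groups of 3, mapped by their labels. Read mapping by the authors used Bowtie2 2.5.0 and hg38, and they called peaks with MACS2 against input (cut-off 0.05). MACS2's version, a blacklist and the treatment of reads with several matches are not given in the sources used here. Per condition the authors deposited 1 peak list of merged replicates. The peak names of RELA at 30 min of TNFα carry a replicate number, so it is not settled that all 3 were merged there. The deposited fold enrichment is a ratio of ChIP over input. The deposited −log10 of q served for ties and a stricter limit. The deposited summit offset placed the peak's centre. A further 32 columns (score and −log10 p-value) were not used. Depth per sample is unknown.

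Tandem repeats were regions whose 1000 bp around the summit matched themselves in at least 0.4 of positions at some shift of 1 to 400 bp. Classes were formed outside them against the full partner list. Genes came from GENCODE 44 (protein-coding starts). Promoter sequences for the motif share came from RefSeq. Shares carry Clopper-Pearson intervals and differences Newcombe intervals. Intervals cover counting error over regions only. Scripts (pysam 0.24.0, scipy 1.17.1, pandas 2.3.3, numpy 2.4.6, matplotlib 3.10.9, Python 3.11.15) were tested on simulated data and against bedtools 2.31.1. Named were the 10 strongest regions of each class by fold enrichment, CXCL8, EFNA1, TNFAIP3, MMP1, BCL3, NFKBIA, and listed genes within 10 kb of a member. One of the strongest retained regions is not reported here. Listed genes 10 to 50 kb away enter the counts only, except CSF1, TNIP2, MMP3, MMP10, IL1A, IL1B and FOSL1, named after their values were seen. Members and lists were chosen with earlier results of these data known. Alternatives covered significance, strength, list length, overlap, repeats, vehicle calls, motif and distances.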

Additional observations from a re-analysis of the deposited data

Results flagged for a closer look

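Some changes from 30 min to 6 h differed between TWEAK and TNFα by the interval of the difference itself. The share of 30 min RELA regions called at 6 h was 40.7% with TWEAK and 35.3% with TNFα, a difference of 5.4 percentage points (Newcombe 95% interval 1.6 to 9.2). For 30 min regions absent from the vehicle list the order was the opposite, 16.2% with TWEAK and 32.5% with TNFα, a difference of -16.3 points (-19.8 to -12.2). The share of 6 h regions not called at 30 min was 38.0% with TWEAK and 19.2% with TNFα, a difference of 18.8 points (14.3 to 23.6). The lists differ in length, with 681 and 450 regions for TWEAK and 8304 and 3657 for TNFα, and both ligands share the vehicle list. The part of list length in these differences was not tested. No outlying sample could be looked for, since each condition has 1 list.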

How the results depend on the processing

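No paired analysis was possible because peaks were called on merged replicates, and for the same reason no replicate could be left out. With no region left out for tandem repeats, early-only per late-only regions turned to 0.486, the share called at 6 h was 70.5% and the share new at 6 h 46.1%. In this section, new at 6 h means not called at 30 min, whether or not RELA was called in vehicle. RELB overlap was then 44.1% for early-only, 84.4% for retained and 31.7% for late-only regions, and the NF-κB motif 35.5%, 8.83% and 3.80%. With a self-match limit of 0.5, the shares called and new at 6 h were 49.0% and 42.9%, the motif was found in 64.5%, 39.8% and 16.3% of the classes in the same order, a gene start within 50 kb in 68.8%, 49.8% and 38.5%, and H3K27ac at 78.8% of early-only and 44.6% of late-only regions. With the 300 strongest regions of each list the ratio was 1.00, which follows from equal list lengths, and 53.0% of regions were called and 47.0% new at 6 h. RELB overlap was then 68.1% in early-only and 74.5% in late-only regions, and the late-only motif share 55.3%. With fold enrichment of at least 5, 34.3% were called and 28.7% new at 6 h, RELB overlap was 60.5% in early-only and 63.1% in late-only regions, and the late-only motif share was 44.0%. Among regions absent from the vehicle list, 16.2% were called and 65.4% new at 6 h, and RELB overlap was 49.2%, 77.4% and 38.8%. In 2 alternatives chosen after seeing the data, leaving out regions in all 10 lists gave a retained motif share of 67.6%, and leaving out regions in a RELB list at 30 min gave 33.9% called at 6 h and motif shares of 75.9% in retained and 38.0% in late-only regions. A motif window of 100 bp gave 63.9% for early-only regions. A gene start within 10 kb was found for 49.5%, 48.4% and 33.9%, and an H3K27ac peak over the region itself for 68.6%, 70.4% and 46.8%. Of the other 74 values, shares stayed inside the interval of the main result, and early-only per late-only regions stayed above 1. That ratio was 1.38 with the self-match limit of 0.5 and 4.76 with fold enrichment of at least 5. It was 3.06 without regions in a RELB list at 30 min. The order of classes was not kept throughout. RELB overlap was higher in late-only than in early-only regions with the 300 strongest regions and with fold enrichment of at least 5. The intervals of these classes overlap in both settings. H3K27ac was more frequent in retained than in early-only regions when the peak had to overlap the region, with intervals that overlap. The motif order of these classes also turned without regions in a RELB list at 30 min. Of the genes in the lists, regions near NFKBIB, CSF1, TNIP1 and REL changed class under at least 1 alternative. Except where an alternative's construction shows it, the cause was not tested.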

Other observations

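Within each class, the share of regions with the NF-κB motif rose with fold enrichment. In early-only regions it was 64.0%, 71.5% and 77.0% over 3 bins of near-equal size from the lowest fold enrichment to the highest, in retained regions 53.8%, 59.3% and 67.7%, and in late-only regions 10.5%, 38.6% and 42.1%. RELB at 6 h of TWEAK rose likewise in early-only regions, 42.4%, 59.2% and 65.2%, and in late-only regions, 28.1%, 49.1% and 66.7%, but not in retained regions, 86.0%, 94.5% and 88.2%.

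Few early-only regions were called for RELA at 30 min of TWEAK and in none of the other 9 RELA and RELB lists, 12 of 404 or 2.97% (1.54 to 5.13). Among late-only regions, 26 of 171 were called at 6 h of TWEAK alone, 15.2% (10.2 to 21.5). A 30 min region lay within 500 bp of 12 late-only regions, and a 6 h region lay within 500 bp of 6 early-only regions. At IL1A and IL1B, genes of the interleukin-1 cytokines, both regions between their starts were early-only, at 6.66 and 6.54, and RELB was called at both at 6 h of TWEAK, at 7.46 and 6.49. An early-only region 26.6 kb from the start of the FOSL1 gene, at the promoter of EFEMP2, had 8.66, with RELB at 6.55 at 6 h. Upstream of FOSL1, 12.4 and 15.2 kb from its start, 2 regions were late-only, at 4.20 and 4.75, with RELB at 8.09 and 4.30. The former of these late-only regions was called for RELA in vehicle, at 5.57.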
